A study of Mus musculus with 55 samples.

Results

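Dorsal hippocampal transcriptomes of female Cnih3 knock-out (KO) and wild-type (WT) mice were compared at a single estrous stage, estrus. The comparison held 13 of the 55 mice of the series, 6 KO mice (12_1, 12_2, 12_3, 2593, 8_4 and 9_1) and 7 WT mice (1_1, 2_1, 3_1, 3_2, 5_2, 5_3 and 8_3), chosen by the genotype and stage in their labels. The series holds 10 groups, formed by both genotypes in males and in females at metestrus, diestrus, proestrus and estrus, with RNA from the dorsal-most part of the hippocampus of each mouse. Estrus was called from cornified epithelial cells in vaginal lavage. The KO line lacks exon 4 of Cnih3, which shifts the reading frame of the exons after it. It was made from a Knockout Mouse Project allele in C57BL/6N and backcrossed to C57BL/6J. KO mice were 13 to 20.71 weeks old and WT mice 16.29 to 20.29 weeks old, untreated in both groups as far as the labels tell. The other groups held both younger and older mice than these, and their ages were not matched between genotypes. All 6 KO mice came from Cnih3 x B6 parents, whereas 6 of the 7 WT mice came from B6 x B6 parents and 1, mouse 8_3, from Cnih3 x B6 parents. Among the estrus mice, genotype and parental breeding therefore cannot be told apart beyond what that 1 mouse shows. Mice 12_1, 12_2 and 12_3 (all KO), 3_1 and 3_2 (both WT), 5_2 and 5_3 (both WT), and KO mouse 8_4 and WT mouse 8_3 share the first part of their number, and the sources used here do not say what it stands for.

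CNIH3 is a cornichon protein, an auxiliary subunit of AMPA-type glutamate receptors that helps the receptors leave the endoplasmic reticulum and slows their closing. AMPA receptors carry most fast excitatory transmission in the hippocampus, and their number at synapses changes with learning. Estrus follows proestrus, the stage at which estradiol and progesterone peak.

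Libraries of the estrus mice held 29986468 to 63321180 gene counts, with a median of 53117677, and RNA integrity numbers of 8.2 to 8.9. Of 55487 genes in the table, 16168 passed the filter of more than 1 CPM (gene counts scaled by library size, here with TMM factors) in at least 10 of the 55 libraries and were tested with limma, in 1 model of all 10 groups. A gene was called differentially expressed (a DEG) at a false discovery rate (FDR, Benjamini-Hochberg) under 0.05. Fold changes are KO minus WT on the log2 scale with their standard error (SE), and levels are CPM, which can be compared between mice but not between genes. KO mouse 12_1 had the lowest weight that the model gave to an estrus library, 0.392, and the weights of the WT libraries lay between 0.876 and 1.812. The labels name mice, so each library is 1 animal. No pair of estrus libraries came close to identical (highest correlation 0.988).

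The values used here gave no check of the genotype from the targeted gene itself. The paper reports that read alignments showed the loss of the deleted exon in its experimental animals. That check was not repeated here. Cnih3 (chr1:181352628-181460641, plus strand, GRCm38) was counted over all its exons, and the exon that the KO line lacks makes up 113 of its bases. All 4 annotated transcripts hold that exon, so that neither gene counts nor transcript estimates isolate its loss. The length of the exon leaves a remainder of 2 when divided by 3, so its loss shifts the reading frame. The deleted exon is shown because it defines the mutation (chr1:181449970-181450082, plus strand, GRCm38, all in lower case since no base is singled out):
Cnih3 exon 4: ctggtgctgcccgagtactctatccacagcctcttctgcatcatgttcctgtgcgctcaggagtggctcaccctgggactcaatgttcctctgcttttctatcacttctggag

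Cnih3 counts ranged from 25.5 to 42.0 CPM in KO mice (median 30.5) and from 34.5 to 57.5 CPM in WT mice (median 39.8). The groups overlapped, with KO mice 9_1 and 12_2 inside the WT range. The log2 fold change was -0.36 (SE 0.155, limma, unadjusted p = 0.0229, FDR = 0.332), so Cnih3 was not called. Of its transcripts, Cnih3-202, Cnih3-203 and Cnih3-204 were in the transcript table, and Cnih3-201 was not analysed here. Cnih3-202 was estimated at 0 to 2.39 CPM in KO mice and 0 to 1.11 CPM in WT mice. Cnih3-203 was listed at 0 in all 6 KO mice and in 4 of 7 WT mice, with a highest WT value of 0.653 CPM. Cnih3-204 was above 0 in a single mouse, KO mouse 12_3, at 0.0749 CPM. None of these transcripts was called in a two-sided exact permutation test on log2(CPM + 0.1) (adjusted p = 0.734 to 0.923, 3 transcripts). With so many values at 0, the test could show little. For Cnih3-204, above 0 in a single mouse, it could not have given a small p.

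Estrus KO mice differed from WT mice in 29 DEGs (0.179% of genes tested), of which 10 were higher in KO (0.0619%) and 19 lower (0.118%). Absolute log2 fold changes lay between 0.29 and 1.45, and only 3 DEGs, Cort, Aim2 and Dnah8, exceeded 1. The median absolute fold change of all tested genes was 0.11. Of the DEGs, 25 were protein coding. Called in each of the 13 fits that left out 1 mouse were 8 DEGs, namely Cort, Aim2, Bex1, Atf4, Snrpd1, Zfas1, Polr2k and Tceal8. Without KO mouse 12_3 the count was 13, without KO mouse 12_2 it was 15, without WT mouse 8_3 17 and without WT mouse 3_1 19. The quasi-likelihood test of edgeR called 7 genes and DESeq2 29, of which 6 and 15 were among the DEGs. At an unadjusted p under 0.05 there were 1896 genes (11.7%), 911 higher (5.63%) and 985 lower (6.09%). The KO and WT ranges did not overlap for 80 genes (0.495%), and 15 of these were DEGs. Just outside the threshold were Nudt3 (FDR = 0.0515) and Unc45a (FDR = 0.0579), and just inside were Gm45660, Xpo4 and Gm3248 (FDR = 0.0497 each).

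**Figure D1:**
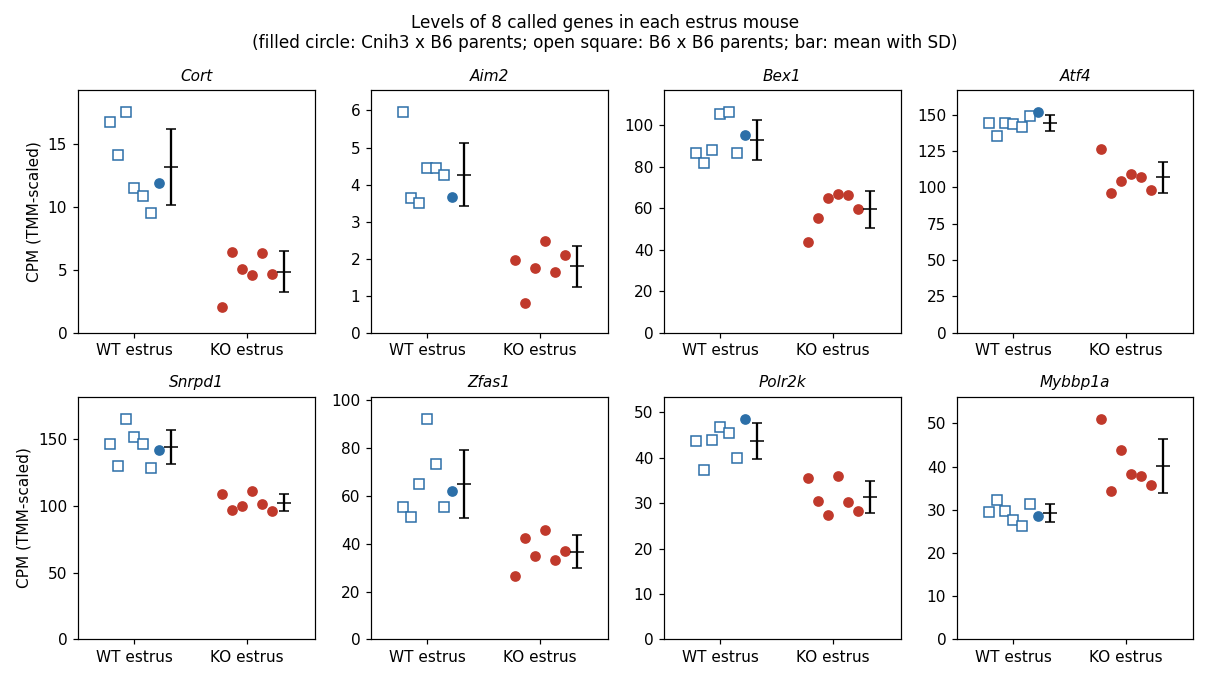
Levels in CPM of 8 DEGs, a panel each, in the 7 WT and 6 KO estrus mice, with 1 point for each mouse (filled circles, Cnih3 x B6 parents, and open squares, B6 x B6 parents) and a black bar for the mean with its SD. In the Cort panel all KO points (2.02 to 6.39 CPM) lie below all WT points (9.56 to 17.6 CPM), and for Mybbp1a all KO points (34.4 to 51.1 CPM) lie above all WT points (26.2 to 32.2 CPM).

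The neuropeptide gene Cort had the smallest unadjusted p of all genes, and shared the smallest FDR with Aim2 and Bex1. Cortistatin is a somatostatin-related peptide made by subsets of GABAergic interneurons. Cort (chr4:149125034-149126763) lay between 2.02 and 6.39 CPM in KO mice (median 4.895) and between 9.56 and 17.6 CPM in WT mice (median 11.9). Every KO mouse was below every WT mouse, a 2.62-fold lower level (log2 fold change -1.39, SE 0.21, limma FDR = 0.000183). In bulk tissue, fewer cells of a type and less RNA per cell cannot be told apart.

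Of 12 tested neuropeptide and opioid receptor genes, Cort was the only DEG, 5 genes were lower (6.09% of all genes) and 1 was higher (5.63%) at an unadjusted p under 0.05, and the median was -0.19 against 0.0098 for all genes. Somatostatin (Sst) ranged from 162.9 to 261.8 CPM in KO mice and from 238.4 to 322.9 CPM in WT mice and was not called (-0.42, FDR = 0.166). Neuropeptide Y (Npy) lay at 80.8 to 406 CPM in KO mice and at 111 to 178 CPM in WT mice (-0.48, FDR = 0.198). The highest KO value was that of mouse 12_1, which alone exceeded the WT range. Calb2, encoding calretinin, was in the lists of interneuron and thalamic markers. It ranged from 39.5 to 96.3 CPM in KO mice and from 20.3 to 31.6 CPM in WT mice, without overlap, and missed the threshold (0.87, SE 0.26, FDR = 0.152). Gad2, which makes GABA in all interneurons, had FDR = 0.381. Summed over 13 interneuron markers, KO mice lay at 990.4 to 1526 CPM and WT mice at 1075 to 1222 CPM, and none of the 13 was a DEG. Their part in the Cort difference was not tested.

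Aim2, a sensor of cytosolic DNA that builds an inflammasome, was the second of the large differences. KO mice lay between 0.814 and 2.47 CPM (median 1.85) and WT mice between 3.49 and 5.96 CPM (median 4.27). Again no KO value reached the WT range, and the level was 2.59-fold lower (-1.37, SE 0.21, FDR = 0.000183). Aim2 (chr1:173350879-173466040, plus strand) lies 8.00 Mb from Cnih3 on the same chromosome. It overlaps Cadm3, a cell adhesion gene on the opposite strand, over 16817 bases. The library kit did not mark strand, and Cadm3 held a mean of 1965 counts per estrus library against 153 for Aim2. The fold change of Cadm3 was 0.06.

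Genes near the deleted locus on chromosome 1 were read separately. Within 10 Mb of Cnih3, 144 genes were tested, 1 was a DEG (Aim2), 9 were higher and 9 lower at an unadjusted p under 0.05 (12.5% against 11.7% of all genes), and the median was -0.0071. Within 2 Mb, none of 45 genes was a DEG and 6 had an unadjusted p under 0.05. The 855 genes farther away on the chromosome held no DEG. After Aim2, the smallest p-values in the flank belonged to Ptpn14, a tyrosine phosphatase gene 8.38 Mb away (0.71, FDR = 0.0952), and to B230369F24Rik, 3.04 Mb away (-0.46, FDR = 0.102). Prox1os, Catspere2, Nhlh1 and Ahctf1 followed (FDR = 0.161 to 0.221).

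Bex1, Bex2 and Tceal8 were 3 DEGs among the small X-linked genes of the Bex and Tceal families. Bex proteins are brain-expressed adaptors, and Tceal proteins resemble a transcription elongation factor. Bex1 was at 43.5 to 67.0 CPM in KO mice (median 62.0) and at 81.5 to 106.3 CPM in WT mice (median 88.1), with no overlap (-0.585, SE 0.09, FDR = 0.000183). Bex2 was at 420.2 to 558.2 CPM in KO mice and 571 to 733 CPM in WT mice, likewise without overlap (-0.44, SE 0.08, FDR = 0.00503). Tceal8 ranged from 96.3 to 131.5 CPM in KO mice and from 118 to 151.5 CPM in WT mice, which overlapped (-0.39, SE 0.07, FDR = 0.00263). All 11 tested members of both families had negative fold changes. Of these, 9 had an unadjusted p under 0.05 (6.09% of all genes were lower at that p), and the median was -0.22. Bex4, Tceal1, Tceal9 and Tceal5 were not called (-0.21 to -0.29, FDR = 0.185 to 0.286).

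Atf4, the transcription factor through which cells under amino acid or protein-folding stress switch on amino acid synthesis, was lower in KO. Its gene (chr15:80255184-80257541) lay between 96.0 and 126 CPM in KO mice (median 106) and between 136 and 152 CPM in WT mice (median 144). The groups did not overlap (-0.48, SE 0.08, FDR = 0.000949). Atf5, a related factor, lay between 4.27 and 6.28 CPM in KO mice and between 7.01 and 9.82 CPM in WT mice, again apart (-0.68, SE 0.15, FDR = 0.0412). Mthfd2, a mitochondrial folate enzyme and known ATF4 target, ranged from 14.0 to 18.3 CPM in KO mice and from 18.0 to 23.3 CPM in WT mice and was also lower (-0.47, SE 0.11, FDR = 0.0497). Chac1, which degrades glutathione, missed the threshold (-0.62, SE 0.15, FDR = 0.0722). Of 22 tested genes of Atf4 and its targets, 3 were DEGs, all lower. At an unadjusted p under 0.05, 6 were lower (6.09% of all genes) and 0 higher (5.63%), and the median was -0.11. Asns, the asparagine synthetase gene, was not called (-0.18, FDR = 0.472), and of 16 chaperones of the endoplasmic reticulum none had an unadjusted p under 0.05.

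Promoters of this list were read because ATF4 is known to bind a composite element with C/EBP factors. The RefSeq promoter table (GRCm38.p6, 250 bases before to 50 after the start) held 19 of the list's genes. The motif TGATGNAA, on either strand, was found in 7 of them (36.8%): Aars, Asns, Chac1, Gars, Nupr1, Slc7a11 and Vldlr. It was found in 4.51% of all 27025 promoters and in 2.66% of those of 11313 tested genes. The list was drawn up from known ATF4 targets, so its higher share says nothing about KO against WT. None of the 19 DEGs with a promoter in the table held it. The promoters of Chac1 (chr2:119350992-119351291, plus strand) and Asns (chr6:7693160-7693459, minus strand) are shown with the motif in capitals, beside that of the DEG Mthfd2 (chr6:83317555-83317854, minus strand), where the motif was not found. Each reads 5' to 3' along its gene. The motif began 193 bases before the Chac1 start, on the opposite strand, and 23 bases before the Asns start:
Chac1: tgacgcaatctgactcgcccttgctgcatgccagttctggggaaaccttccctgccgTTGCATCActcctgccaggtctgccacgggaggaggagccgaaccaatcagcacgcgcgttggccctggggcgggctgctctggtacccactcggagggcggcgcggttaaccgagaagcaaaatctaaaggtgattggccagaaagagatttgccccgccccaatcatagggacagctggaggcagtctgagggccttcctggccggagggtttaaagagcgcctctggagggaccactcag
Asns: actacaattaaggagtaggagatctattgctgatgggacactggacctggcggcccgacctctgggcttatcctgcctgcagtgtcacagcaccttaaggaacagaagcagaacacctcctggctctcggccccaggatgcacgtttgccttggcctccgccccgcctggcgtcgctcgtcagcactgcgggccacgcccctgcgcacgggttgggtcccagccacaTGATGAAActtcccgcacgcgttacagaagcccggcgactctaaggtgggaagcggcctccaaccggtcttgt
Mthfd2: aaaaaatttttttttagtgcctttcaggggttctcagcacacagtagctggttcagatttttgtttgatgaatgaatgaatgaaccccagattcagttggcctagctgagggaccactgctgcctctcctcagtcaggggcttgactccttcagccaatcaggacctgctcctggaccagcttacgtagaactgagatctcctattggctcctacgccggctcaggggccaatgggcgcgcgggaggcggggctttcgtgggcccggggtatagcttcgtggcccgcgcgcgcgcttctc

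The list of spliceosomal proteins held 3 DEGs. Snrpd1 and Snrpd3 encode Sm core proteins of the spliceosome's small ribonucleoproteins (snRNPs), and Snrpc a protein of the U1 particle. Snrpd1 was at 96.2 to 111 CPM in KO mice (median 100.7) and at 128 to 165 CPM in WT mice (median 146), without overlap (-0.51, SE 0.09, FDR = 0.000949). Snrpc was at 36.1 to 47.7 CPM in KO mice and at 50.6 to 65.4 CPM in WT mice, also apart (-0.48, SE 0.10, FDR = 0.0184). Snrpd3 was lower by less, with 1 KO mouse touching the WT range (-0.31, SE 0.06, FDR = 0.0173). Of 19 snRNP genes, 18 had negative fold changes, 7 were lower at an unadjusted p under 0.05 (6.09% of all genes) and the median was -0.17. Gm2991, a DEG at -0.74 (FDR = 0.0184), is 98.3% identical to Snrpc over 480 bases, so reads of that pair may not be told apart. None of 24 SR proteins and related splicing regulators was a DEG (2 higher and 2 lower at an unadjusted p under 0.05).

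Zfas1, a host of small nucleolar RNAs (snoRNAs), lay between 26.3 and 45.6 CPM in KO mice (median 35.9) and between 51.3 and 92.2 CPM in WT mice (median 62.0). No KO mouse reached the WT range (-0.76, SE 0.13, FDR = 0.00118). Gas5, another host, also showed no overlap, with 217.9 to 307.9 CPM against 308.2 to 424.8 CPM, but was not called (-0.36, FDR = 0.195). Of 11 tested hosts, 4 had an unadjusted p under 0.05, all lower (6.09% of all genes), with a median of -0.23. Polr2k, a small subunit shared by the nuclear RNA polymerases, was lower in KO (27.5 to 35.9 CPM against 37.4 to 48.6 CPM, -0.54, SE 0.10, FDR = 0.00217). Cbx8, a chromodomain protein of polycomb complexes, was lower too (-0.64, SE 0.13, FDR = 0.0173), and Mybbp1a, a nucleolar Myb-binding protein, was higher (34.4 to 51.1 CPM against 26.2 to 32.2 CPM, 0.41, SE 0.09, FDR = 0.0184).

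Cytosolic ribosomal protein genes held no DEG, yet 76 of 77 had negative fold changes and 38 had an unadjusted p under 0.05, none of them higher (49.4% against 6.09% of all genes that were lower). Their median was -0.20. Rpl23 had the smallest p (257 to 295 CPM in KO and 294 to 384 CPM in WT, FDR = 0.163). Gm45660, a DEG at -0.70 (FDR = 0.0497), is 97.4% identical to Rps19 over 151 bases. By mouse, the median ribosomal level relative to the mean of WT mice lay between -0.28 and -0.13 in KO and between -0.20 and 0.16 in WT. WT mice 2_1 and 5_3 were inside the KO range.

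Cox6a2, an isoform of a cytochrome c oxidase subunit, was the only DEG among 82 nuclear genes of the respiratory chain. It was at 1.496 to 6.29 CPM in KO mice and 7.40 to 11.5 CPM in WT mice, without overlap (-0.85, SE 0.19, FDR = 0.0298). The lowest value was that of KO mouse 12_1. Of the 82 genes, 14 were lower (6.09% of all genes) and none higher (5.63%) at an unadjusted p under 0.05, with a median of -0.13. Among 13 mitochondrially encoded mRNAs none was a DEG, 11 were lower at an unadjusted p under 0.05 (6.09% of all genes), and the median was -0.59. That level differed widely between mice, with median values of -1.28 in KO mouse 12_3 and 0.26 in KO mouse 2593, which was above 6 of the 7 WT mice.

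**Figure D2:**
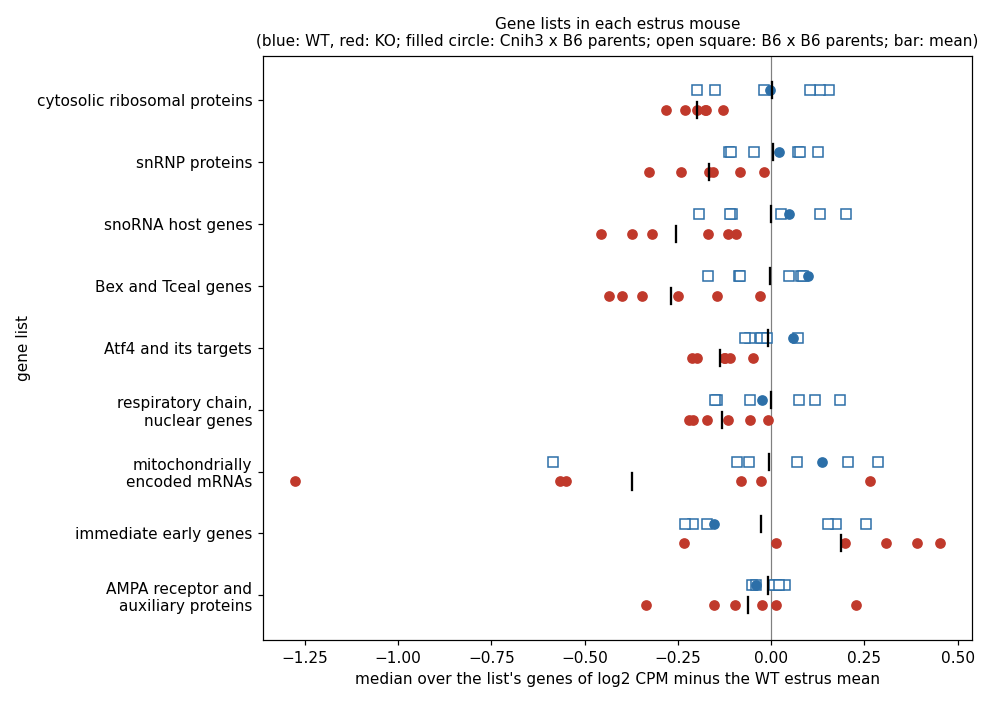
Median log2 level of the genes of a list in each estrus mouse, relative to the mean of the WT mice, a row for each list, with 1 point for each WT mouse (blue) and KO mouse (red), filled for Cnih3 x B6 parents and open for B6 x B6 parents, and a black bar for the mean. KO points of the ribosomal list lie between -0.28 and -0.13, and the mitochondrially encoded list reaches -1.28 in KO mouse 12_3.

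Gabra2, which encodes the alpha-2 subunit of the GABA-A receptor, was a DEG with uneven KO levels. C57BL/6J mice are known to carry a private intronic variant that lowers Gabra2, and other strains are known to have more of it. Gabra2 (chr5:70957597-71095849, minus strand) was at 96.0 to 116 CPM in WT mice (median 107). KO mice ranged from 114.4 to 331 CPM (median 149.9), with 12_3 and 2593 at 288 and 331 CPM and the other 4 between 114.4 and 161 CPM. The lowest KO mouse, 9_1, was inside the WT range. The log2 fold change was 0.80 (SE 0.18, FDR = 0.0440), a 1.74-fold higher level, and without mouse 12_3 it was 0.48 (FDR = 0.468). None of the other 11 GABA-A subunits was a DEG. Gabrd, the delta subunit, was at 11.5 to 41.7 CPM in KO and 31.4 to 40.4 CPM in WT (-0.33, FDR = 0.218).

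Wdfy1 (chr1:79702262-79776143), whose level is also known to differ between C57BL/6 substrains, had high and low levels in both genotypes. KO mouse 9_1 was at 21.4 CPM and the other 5 KO mice lay between 85.01 and 106 CPM. WT mouse 8_3, with Cnih3 x B6 parents, was at 82.6 CPM and the other 6 WT mice lay between 16.3 and 23.4 CPM. Wdfy1 was not called (1.46, SE 0.41, FDR = 0.123), and among mice with Cnih3 x B6 parents alone its sign turned to -0.27. With the breeding of the parents as a term, the genotype difference was 0.11 for Wdfy1 (FDR = 0.951) and 0.57 for Gabra2 (FDR = 0.313). Substrain background itself was not tested. The KO mice with the highest Gabra2, at 288 and 331 CPM, had high Wdfy1. KO mouse 9_1, with low Wdfy1, had the lowest Gabra2 of the KO mice (114.4 CPM). The other KO mice with high Wdfy1 had Gabra2 at 125 to 161 CPM. WT mouse 8_3, with high Wdfy1, had Gabra2 at 102.3 CPM, among the levels of the other WT mice.

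**Figure D3:**
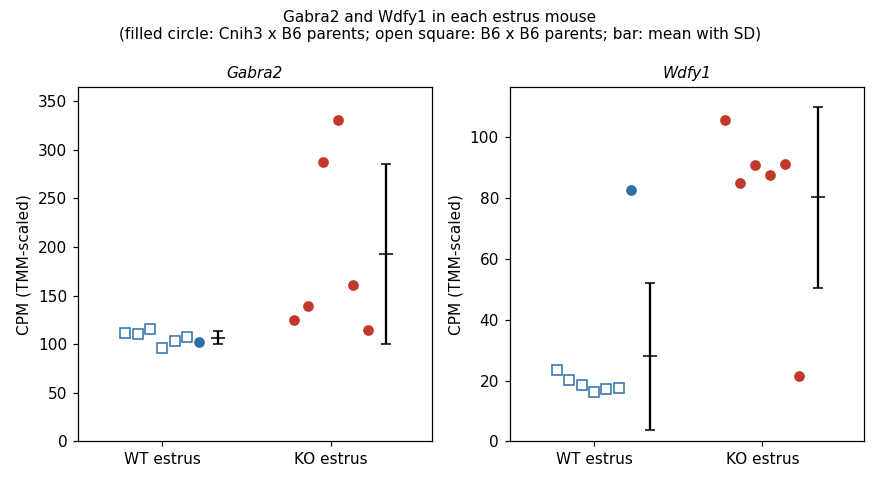
Levels in CPM of Gabra2 and Wdfy1 in each estrus mouse, by genotype, with filled circles for Cnih3 x B6 parents, open squares for B6 x B6 parents and a black bar for the mean with its SD. Gabra2 is highest in KO mice 12_3 and 2593, and for Wdfy1 KO mouse 9_1 (21.4 CPM) and WT mouse 8_3 (82.6 CPM) stand with the other genotype.

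Among the remaining DEGs, 6 were higher in KO and have named products. Afap1l2, an adaptor linked to actin filaments, was at 9.26 to 11.8 CPM in KO mice and 4.47 to 9.44 CPM in WT mice (0.61, SE 0.14, FDR = 0.0346). Tbcd, a tubulin folding cofactor, was at 24.3 to 28.3 CPM against 16.2 to 23.3 CPM, with no overlap (0.36, SE 0.08, FDR = 0.0410). Stard4, a cholesterol carrier, was at 15.1 to 31.0 CPM against 8.91 to 13.9 CPM, the highest value being that of KO mouse 12_1 (0.43, SE 0.10, FDR = 0.0497). Ubxn11 (0.51), Zfp612, a zinc finger gene (0.29), and Xpo4, a nuclear transport receptor (0.50), had FDRs of 0.0410 to 0.0497, and their groups overlapped. Gm47033 (0.59, FDR = 0.0298) and Gm3248 (0.85, FDR = 0.0497) are predicted genes. Gm3248 belongs to a family of near copies, with 117 other genes that resemble it, so its reads are uncertain. Lower in KO were Htra4, a serine protease gene (-0.78, SE 0.17, FDR = 0.0210), and Dnah8, a dynein heavy chain of cilia (-1.45, SE 0.34, FDR = 0.0497). Dnah8 ranged from 0.109 to 1.35 CPM in KO mice (median 0.789) and from 0.887 to 1.51 CPM in WT mice, and KO mice 12_1, 2593 and 8_4 were inside the WT range. The lowest value was that of KO mouse 12_3. Without that mouse its fold change was -0.66 (FDR = 0.512). Dnah8 held a mean of 48.1 counts per library and overlaps Glo1, on the opposite strand, with a mean of 11450.

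Genes of excitatory synapses gave no DEG. Of 21 AMPA receptor subunits and auxiliary proteins other than Cnih3, 1 had an unadjusted p under 0.05 upward (5.63% of all genes), Cacng7 (0.44, FDR = 0.265), and 3 downward (6.09%). These were Cacng4 and Cacng3, auxiliary subunits of the TARP type (-0.33 and -0.17, FDR = 0.199 and 0.348), and Prrt1, another auxiliary protein (-0.23, FDR = 0.398). Fold changes were negative in 15 of the 21 AMPA receptor genes (median -0.04) and in all 6 NMDA receptor subunits (median -0.13). They were negative in 7 of 21 postsynaptic scaffold and CaMKII genes (median 0.06). None of the NMDA receptor subunits and 1 of the scaffold and CaMKII genes (Dlg3, -0.21, FDR = 0.397) had an unadjusted p under 0.05 (11.7% of all genes). The same held for 1 of 73 potassium channel genes (Kcna6, -0.18, FDR = 0.416). Steroid hormone receptors (8 genes) held none, and 13 estrogen-responsive genes held 2, Cxcl12 (-0.41, FDR = 0.198) and Igfbp4 (-0.24, FDR = 0.305). Immediate early genes, which neurons switch on when active, had positive fold changes in 16 of 17 cases with a median of 0.22. None was a DEG, and 4 were past an unadjusted p of 0.05 upward (5.63% of all genes), namely Egr2 (1.03, FDR = 0.285), Arc (0.56, FDR = 0.358), Npas4 (0.72, FDR = 0.364) and Fos (0.58, FDR = 0.398). Of 16 glucocorticoid-responsive genes, 16 clock genes and 10 nuclear long non-coding RNAs, none was a DEG, with 1 or 2 in each list at an unadjusted p under 0.05.

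Markers of the hippocampal cell classes were present in all 13 libraries and none was a DEG. Summed levels overlapped between genotypes for dentate granule cells (467 to 732 CPM in KO, 497 to 733 CPM in WT) and for CA1 (317 to 434 and 334 to 444 CPM), CA2 (332.3 to 425 and 336 to 413 CPM) and CA3 pyramidal cells (920 to 1060 and 784 to 979 CPM). Nrip3, in the CA3 list, was at 235 to 301 CPM in KO and 177 to 225 CPM in WT, without overlap (0.36, FDR = 0.0745). C1ql2, a synaptic protein of granule cells, had a fold change of -0.70 (FDR = 0.135). Markers of tissue next to the hippocampus were read too, and none was a DEG. All 10 choroid plexus markers had positive fold changes (median 0.84), with a sum of 1345 CPM in KO mouse 9_1 against 39.3 to 202 CPM in the other KO mice and 25.8 to 124 CPM in WT mice. All 8 meningeal fibroblast markers were likewise positive (median 0.49), with 21.2 to 68.8 CPM in KO and 15.6 to 32.3 CPM in WT. At an unadjusted p under 0.05, 2 of these 8 were higher (5.63% of all genes) and none of the choroid plexus markers was. Blood markers were negative in 6 of 6 (median -0.51), with 278 to 435 CPM in KO mice, 339 to 1343 CPM in WT mice and the highest sum in WT mouse 3_2. At an unadjusted p under 0.05, 4 of these 6 were lower (6.09% of all genes). Thalamic markers summed to 125 to 168 CPM in KO and 106 to 128 CPM in WT mice, neocortical markers to 302 to 447 and 337 to 449 CPM, and pituitary markers to 13.2 to 121 and 35.6 to 134.5 CPM, with Lhb at 0 in all 13 mice. Oligodendrocyte (4468 to 6775 and 4440 to 6449 CPM), oligodendrocyte precursor (70.9 to 96.4 and 68.4 to 88.4 CPM), astrocyte (3073 to 4773 and 3291 to 3748 CPM), microglia (216 to 311 and 259 to 314 CPM) and endothelial markers (312 to 382 and 341 to 430.3 CPM) overlapped between KO and WT mice. Without mouse 9_1, 17 of the 29 DEGs were called. The sign did not change for any of the 29, which had been picked in a fit that shared the remaining mice. The part of these tissues in the DEGs was not tested.

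The 1 WT mouse that shares its parents' breeding with the KO mice was set against the DEGs found without it. Leaving it out of the fit gave 17 DEGs. In 15 of them its level was nearer to the mean of the other WT mice than to that of the KO mice, and in 13 it lay outside the KO range on the WT side, Cort (11.9 CPM), Aim2 (3.66 CPM), Bex1 (95.1 CPM), Atf4 (152 CPM) and Zfas1 (62.0 CPM) among them. In Klhl32, chosen for mention after its values were seen, and in Wdfy1 it was nearer to the KO mice. These counts rest on 1 library, and the share over all genes was not read. That 1 mouse cannot show how much of these differences goes with breeding. With the breeding of the parents as a term in the model, 10 genes were called (0 higher and 10 lower in KO), and all were among the 29. That term was fitted over all 55 mice as 1 shift shared by every stage and by males. WT mice of every group had both kinds of parents, so its size came from other stages and males as well as estrus. They were Cort, Bex1, Snrpd1, Zfas1, Polr2k, Tceal8, Bex2, Cbx8, Gm2991 and Gm45660. Aim2 (-1.04, FDR = 0.110) and Atf4 (-0.45, FDR = 0.106) were no longer called. Keeping only the mice of Cnih3 x B6 parents leaves 1 WT estrus mouse, assumed to vary like the other groups. The fold changes were then -1.26 for Cort, -1.155 for Aim2 and -0.56 for Atf4. All 29 kept their sign in both fits. Without the 3 KO mice of number 12 no gene was called, and again all 29 kept their sign. At an unadjusted p under 0.05 there were then 1125 of all 16168 genes, 27 of the 29 among them. The 29 were picked in fits that held these same mice, so a kept sign or a small p was largely fixed beforehand.

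**Figure D4:**
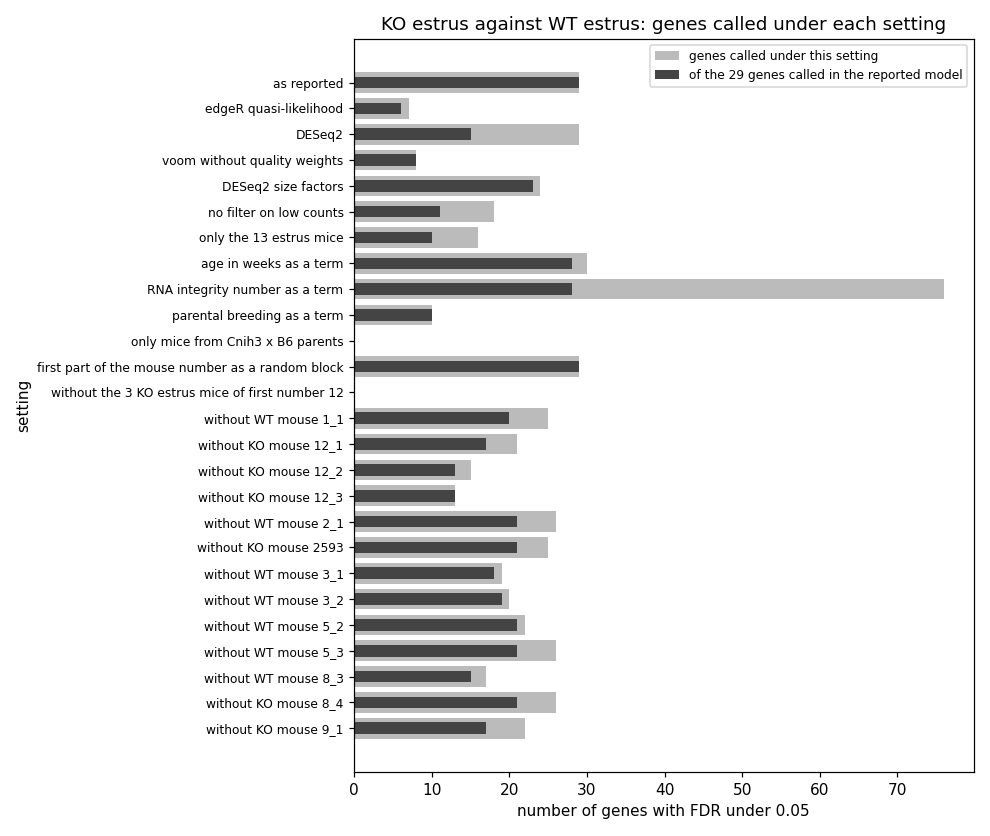
Number of genes with an FDR under 0.05 under the reported model and each alternative (grey bars), and how many of them were among the 29 DEGs (dark bars). The reported model gave 29, the alternatives 0 to 76, and leaving out 1 mouse 13 to 26.

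The same 29 genes were then read in the other KO and WT groups, which are different mice with ages not matched between genotypes. Breeding was not matched either, since every KO mouse of the series had Cnih3 x B6 parents. Of the WT metestrus mice, 3 had B6 x B6 parents and 1 had Cnih3 x B6 parents. Those numbers were 4 and 1 for WT proestrus mice, 2 and 4 for WT diestrus mice, and 1 and 4 for WT males. Repeated signs are therefore not free of breeding, least so at metestrus and proestrus, and its part in them was not tested. In metestrus, 27 had the sign they had in estrus (65.4% of all genes did), and 3 were DEGs there (0.0247% of all genes). At an unadjusted p under 0.05, 17 of the 19 lower DEGs were lower in metestrus too (4.86% of all genes) and 8 of the 10 higher DEGs were higher (4.16%). In diestrus, 27 had the estrus sign (66.5%) and none was a DEG, with 14 lower (3.91%) and 4 higher (4.26%) at an unadjusted p under 0.05. In males, 28 had it (63.2%) and 1 was a DEG (0.00619%), with 16 lower (2.86%) and 6 higher (2.37%). In proestrus, 23 had it (44.6%) and 4 were DEGs (0.315%), with 10 lower (7.87%) and 4 higher (5.82%). For 22 genes, the fold change had the estrus sign in all 4 other comparisons. Aim2 was lower in KO in each of them, by 1.05 on the log2 scale in metestrus (FDR = 0.101), 1.32 in diestrus (FDR = 0.0511), 1.35 in proestrus (FDR = 0.0230) and 1.46 in males (FDR = 0.00381). Cort had fold changes of -1.21 in metestrus (FDR = 0.00483), -1.04 in diestrus (FDR = 0.117), -0.46 in proestrus (FDR = 0.345) and -0.82 in males (FDR = 0.246). Gabra2 was higher in proestrus (0.93, FDR = 0.0427) and at 0.08 in metestrus (FDR = 0.934). Dnah8 had the opposite sign in all 4 (0.08 to 0.42).

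**Figure D5:**
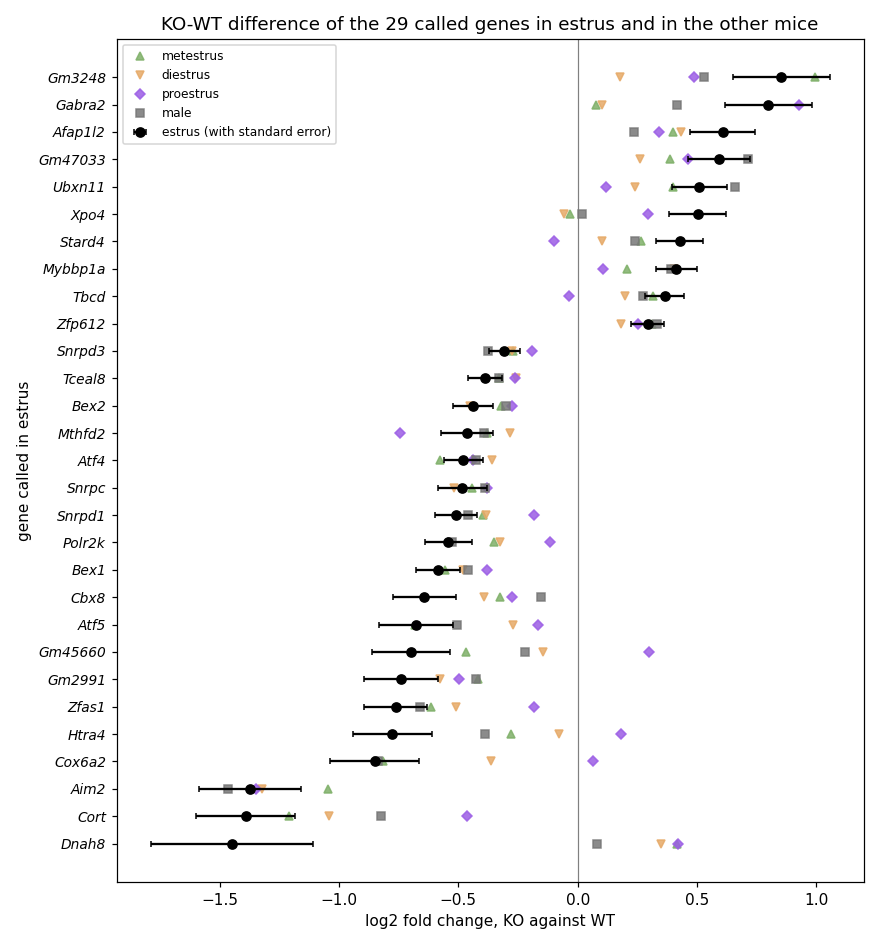
Log2 fold change, KO minus WT, of the 29 DEGs a row each, in estrus (black, with the standard error) and in metestrus, diestrus, proestrus and males (colored markers). Most markers of a gene lie on 1 side of 0 (22 genes on the same side in all 5), and those of Dnah8 lie on both sides.

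Medians in the other comparisons were read for the 6 functional lists with a DEG lower in KO and for ribosomal and mitochondrially encoded genes. Ribosomal protein genes had medians of -0.14, -0.15 and -0.16 in metestrus, diestrus and males, against 0.14 in proestrus. Mitochondrially encoded mRNAs were at -0.52, -0.23 and -0.10 against 0.35, and snoRNA hosts at -0.17, -0.15 and -0.09 against 0.23. The snRNP list was at -0.09, -0.25 and -0.09 against 0.04, the nuclear respiratory chain at -0.06, -0.11 and -0.07 against 0.17, and neuropeptides with opioid receptors at -0.14, -0.265 and -0.02 against 0.22. The Bex and Tceal families (-0.17, -0.22, -0.16 and, in proestrus, -0.14) and Atf4 with its targets (-0.10, -0.12, -0.09 and -0.17) had negative medians in every comparison.

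Whether the genotype difference depended on the stage was tested directly. No gene was called for a genotype difference in estrus that differed from metestrus, diestrus, proestrus, males or the mean of the other 3 female stages (limma, FDR under 0.05). DESeq2 and edgeR also called 0 genes for the mean of the other 3 stages, where 721 genes (4.46%) had an unadjusted p under 0.05 with limma, 422 with edgeR and 443 with DESeq2. The unadjusted counts of limma were 533 for metestrus (3.3%), 421 for diestrus (2.6%), 2480 for proestrus (15.3%) and 394 for males (2.44%). Against the other 3 stages, the smallest p belonged to Dnah8 (difference -1.84, SE 0.40, FDR = 0.407), followed by Cntnap3, a neurexin family gene (1.38, SE 0.32, FDR = 0.587), Gm6158, Gm48069, Slc35f2 and Heyl. Of the 29 DEGs, 9 had an unadjusted p under 0.05 in that test. The 29 were picked for their estrus difference, which is a part of this contrast. Their share was therefore raised beforehand and does not show dependence on the stage. In simulated data of the same size, 39% of genes given a difference of 0.5 in this test and 81% of those given a difference of 1 were recovered. The simulated libraries did not differ in quality, so recovery in the real libraries may be lower.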

How the data were processed

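RNA of the dorsal hippocampus was sequenced from 55 mice in 10 groups, the 13 estrus mice among them. The library kit selects poly-A RNA, reads were paired, and the kit does not mark strand. Per the paper's methods and the processing notes, the authors aligned reads to GRCm38 (Ensembl) with STAR 2.7.9a and deposited whole-number gene counts of uniquely aligned, unambiguous reads from featureCounts 2.0.3. The authors also deposited log2 CPM values of the filtered genes, which the counts gave back for 16164 genes to within 5e-14, and estimated counts and CPM values of transcripts from Salmon 1.5.2, of which the CPM values were read here for Cnih3 only. In the count table, 1 column names no mouse of the sample list and was not used, and 287 repeated lines were dropped.

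The tested genes exceeded 1 CPM in 10 libraries or more, without 5 ribosomal RNA genes. TMM factors were computed (edgeR 4.0.16) and the 10 group means were fitted with voom sample quality weights in limma 3.58.1 under R 4.3.3, as the study's methods describe, with Benjamini-Hochberg adjustment over all 16168 genes. A difference between stages was tested as a contrast of 2 genotype differences. In data simulated on these counts, the fit recovered 55% of genes changed by 0.5 and 88% of those changed by 1 (log2), and 7.74% of its calls were false. The simulation gave each gene 1 mean, apart from the changed genes in KO estrus, and no differences in library quality. It called 155 genes with quality weights and 157 without, whereas the real data gave 29 and 8. These rates may therefore be better than those of the real fit. DESeq2 1.42.0, edgeR's quasi-likelihood test, other scaling, filters, covariates and left-out mice were alternatives.

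The text names every gene called, Cnih3, called members of each list with up to 4 more of the smallest p, the 6 smallest p within 10 Mb of Cnih3, and the 6 smallest p of the difference from the other 3 stages. The lists hold 38 sets of genes, 7 of them with a call, and they and the comparison were chosen with earlier results of these data known. Transcripts were tested by an exact permutation test. The deposited values do not isolate reads of the deleted exon.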

Additional observations from a re-analysis of the deposited data

Results flagged for a closer look

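In a group of 6 or 7 mice, a value was singled out when its gap to the nearest other mouse was a large share of the group's range (Dixon's 95% critical value). The levels of 32 genes, the sums of 38 gene lists and the total counts were read in both genotypes, which gave 142 group values, and 18 stood out. Chance alone flags about 1 in 20 groups.

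KO mouse 12_1, the estrus library with the lowest weight, accounted for 4 of the 18. Its Stard4 level was 31.0 CPM against 15.1 to 17.7 CPM in the other KO mice, and its Gm3248 level 5.82 CPM against 2.35 to 3.55 CPM. Astrocyte markers summed to 4773 CPM in it (3073 to 3548 CPM in the others) and interneuron markers to 1526 CPM (990.4 to 1188 CPM). Without it, Stard4 (FDR = 0.0702) and Gm3248 (FDR = 0.0736) were no longer called.

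KO mouse 9_1 had the highest sums of choroid plexus markers (1345 CPM against 39.3 to 202 CPM) and meningeal fibroblast markers (68.8 CPM against 21.2 to 29.5 CPM), and the lowest Wdfy1 level (21.4 CPM against 85.01 to 106 CPM). WT mouse 8_3 had the highest Wdfy1 level of its group (82.6 CPM against 16.3 to 23.4 CPM) and the highest Cbx8 level (15.45 CPM against 10.0 to 12.2 CPM). KO mouse 12_3 had the highest Afap1l2 level (11.75 CPM against 9.26 to 10.1 CPM).

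Among the other WT mice, Aim2 was highest in mouse 1_1 (5.96 CPM against 3.49 to 4.45 CPM), and Tbcd lowest in mouse 3_1 (16.2 CPM against 20.8 to 23.3 CPM). WT mouse 3_2 had the highest sums of glucocorticoid-responsive genes (2045 CPM against 1283 to 1595 CPM) and of blood markers (1343 CPM against 339 to 669.6 CPM), and the lowest sum of CA3 markers (784 CPM against 947 to 979 CPM). WT mouse 2_1 had the highest sum of postsynaptic scaffolds and CaMKII (8774 CPM against 6005 to 6659 CPM). WT mouse 5_2, the library with the fewest counts, had the lowest sum of steroid hormone receptors (513 CPM against 576 to 613.5 CPM) and the highest sum of Atf4 and its targets (2110 CPM against 1867 to 1932 CPM).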

How the results depend on the processing

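All 29 genes kept their sign under each of the 25 alternatives run. They were picked in the same mice, so this was largely fixed beforehand. Counts of DEGs moved. The quasi-likelihood test of edgeR called 7 (2 higher, 5 lower), voom without quality weights 8 (1 and 7), no filter on low counts 18 (4 higher), the 13 estrus mice alone 16 (4 and 12), RNA integrity as a term 76 (28 and 48), the breeding of the parents as a term 10 (0 and 10), and DESeq2 size factors 6 higher. Only mice from Cnih3 x B6 parents gave 0 in both directions, as did leaving out the 3 KO mice of number 12. Leaving out 1 mouse gave 13 to 26 DEGs, 1 to 9 higher and 10 to 21 lower. Age as a term gave 30, DESeq2 29 and a random block on the number that mice share 29.

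No gene was called for a difference between estrus and metestrus, diestrus, males or the other 3 stages under any alternative run (0 to 0 without 1 mouse). Against proestrus, RNA integrity as a term gave 1331 genes, mice from Cnih3 x B6 parents alone 9, and leaving out 1 mouse 0 to 99, with 91 without WT mouse 2_1, 99 without KO mouse 2593 and 1 without WT mouse 5_3. The cause was not tested. Wdfy1 turned to -0.27 among mice from Cnih3 x B6 parents. Of 800 values of single genes, 474 stayed on their side of the threshold, 320 no longer passed it, 5 newly passed it and 1 turned. The log2 differences of Cnih3-202, Cnih3-203 and Cnih3-204 ranged from 0.05 to 0.97, from -0.78 to -0.29 and from 0 to 0.16 without 1 mouse. No paired analysis was possible because only 1 KO and 1 WT estrus mouse (8_4 and 8_3) share the first part of a number. Depth was not varied, and its limit on low genes was not tested.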
